A study of Mus musculus with 21 samples.

Results

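Potassium channel genes were examined in sorted Nes low mesenchymal cells of mouse bone marrow, in mice without leukemia and in mice carrying human acute myeloid leukemia (AML). The members are the genes whose mouse symbol starts with Kcn and whose mean over all 21 libraries was at least 1 on the log2 scale of the deposited table. Of 89 Kcn symbols among the 26852 genes of the table, 48 met this. By the class their symbols give, these were 17 of 28 voltage-gated pore subunits, 7 of 8 calcium- or sodium-activated pore subunits and 5 of 10 two-pore-domain channels. A further 6 of 15 inward rectifiers, 9 of 16 accessory subunits, 3 of 8 modifier subunits and 1 of 4 non-coding RNAs were members. The members nearest to the limit were Kcnb2 and Kcns1, with means of 1.45 and 1.49, and the nearest Kcn genes outside it were Kcnc1 and Kcnj11, with means of 0.998 and 0.938.

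The study transplanted HL60 and ML1, which are cell lines from human AML, into mice and sorted stromal cells from their bones. The leukemic cells secreted sLP-mCherry, a red fluorescent protein that crosses the membranes of neighboring cells, so that cherry positive cells (ch+) lay close to leukemic cells and cherry negative cells (ch-) did not carry the mark. All hosts were labelled Nestin+ NSG mice, an immunodeficient strain with a green fluorescent reporter driven by Nestin, and Nes low cells are those with a low reporter signal. Hosts were 8 to 12 weeks old when they received leukemic cells and were not conditioned, and the age of the ctrl mice is not given separately. The ctrl group held 3 libraries of unengrafted, untreated mice, labelled as having no marker. The early ch- group and the early ch+ group, both from an early time point of the leukemia, held 6 libraries each, and the late group, from a late time point and also labelled as having no marker, which is not the label of cherry negative cells, held another 6. Every leukemic group consisted of 3 HL60 libraries and 3 ML1 libraries.

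Some labels go against each other. In the labels of the 3 late libraries of ML1, the treatment reads unengrafted, but title and time point read late. Across the tested genes, Pearson's r of these libraries was 0.880 to 0.904 with the ctrl libraries and 0.948 to 0.963 with the HL60 late libraries. They were kept as late, and for many members late results are also given with the HL60 libraries alone. The extraction protocol speaks of sorted CD31+ endothelial cells, whereas the source is given as Nes low mesenchymal cells. In ctrl, the stromal markers Cxcl12, Lepr and Nes had mean levels of 15.19, 12.60 and 7.40 on the log2 scale, and the endothelial markers Cdh5 and Pecam1 had 6.56 and 5.59. The labels do not say that the replicates were separate mice, so p-values measure only the spread between these libraries. The study describes ch- cells as taken out of the marrows that also gave ch+ cells. No label pairs their libraries by mouse, so the tests treat them as independent.

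Potassium channels let potassium ions pass through the cell membrane and thereby set the resting membrane potential and end electrical signals. Voltage-gated channels open on depolarization, calcium-activated channels couple calcium signals to hyperpolarization, inward rectifiers and two-pore-domain channels carry background currents, and accessory subunits change how pores open or where they go. Large-conductance calcium-activated currents have been recorded from cultured mesenchymal cells of bone marrow, and vessel-associated smooth muscle cells use several of these channels to set their tone.

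Levels are the regularized log2 values deposited by the authors, which ran from −2.33 to 22.44 over the table. Per the labels, each library was made from 2 ng of total RNA with linear cDNA amplification, whereas the methods of the study name a larger amount. The table does not give the read depth of each library. Converted from the log2 scale and summed, the values of a library came, in units of 1000000 of normalized signal, to 11.9 to 14.2 in ctrl (median 12.8), 12.3 to 14.7 in ch- (median 13.7), 11.2 to 12.6 in ch+ (median 12.4) and 7.27 to 9.02 in late (median 7.93). Libraries sharing group and line correlated with a Pearson's r of 0.935 to 0.976 across genes. Regularization pulls low genes toward their mean, so their changes are understated. Over the 21 libraries, the median SD was 0.0395 among genes whose mean lay between −2 and 0, but 0.594 between 4 and 6. In such bulk libraries, fewer cells of a type and less RNA per cell cannot be told apart.

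Differences were tested with limma, two-sided, over the 12976 genes with a mean of at least 3.32, the log2 of 10. Genes with a Benjamini-Hochberg adjusted p under 0.1 are called deregulated. Of the members, 32 passed this filter and 16 did not, so counts of deregulated members refer to those 32. The pooled comparisons come from 1 fit of 4 groups, and the comparisons by cell line come from 1 fit of 7 groups. On the deposited scale the median difference of all tested genes between late and ctrl was 0.02, so changes are relative to the bulk of genes. Rescaling each library to the mean total moved that median to 0.71, and moved the median between late and ch+ to 0.63 and between ch+ and ch- to 0.13.

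Per kilobase of exon, the highest members in ctrl were Kcnk1, Kcne4 and Kcnip3, with levels of 6.98, 6.31 and 5.59 on the log2 scale after subtracting the log2 of the exon length. Kcnma1 followed at 5.58, Kcnk6 at 5.53 and Kcnk2 at 5.44, and these neighboring levels lie closer together than the SD of Kcnip3 in ctrl, 0.84. With the length of the longest transcript in place of the exon union, Kcnma1 stood ahead of Kcnip3, at 6.07 against 5.97. In late, Kcne4 and Kcnip3 led the order with 7.78 and 7.17 per kilobase, and Kcnk1 had 5.14. In ch+, Kcnk1 stayed first with 6.68, followed by Kcnip3 with 6.11 and Kcne4 with 6.09.

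The comparison of ch+ with ch- asks how cells marked by neighboring leukemia differ from unmarked cells at the same early stage. A set of voltage-gated channel genes, the background channel gene Kcnk3 and the smooth muscle subunit gene Kcnmb1 were lower in ch+ than in ch- cells, and Kcnc2 was higher. Kcnk3 had a mean level of 3.63 ± 0.55 (SD, n = 6) in ch+ and 6.44 ± 0.35 (SD, n = 6) in ch-. Kcnc2 had 4.71 ± 0.65 (SD, n = 6) in ch+ and 2.67 ± 0.24 (SD, n = 6) in ch-. In limma, 9 of the 32 tested members were deregulated (28.1%), against 6.26% of all tested genes. Of these, 8 were lower, against 2.68% of all tested genes, and 1 was higher. Among them, Kcnc2 passed the filter only through ch+ and Kcnj10 only through ch-, the group where each was higher. The groups did not overlap for 5 members, against 3.01% of all tested genes. The median difference of the tested members was −0.39, and that of all tested genes was −0.02. By class, 5 of 12 voltage-gated genes were lower and 1 was higher, and 1 of 5 two-pore-domain, 1 of 4 inward rectifier and 1 of 6 accessory genes were lower.

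Kcna1 (ENSMUSG00000047976, chr6:126640397-126646384, minus strand) encodes a Shaker-type voltage-gated subunit known from axons. In ch- libraries it read 6.53, 5.26 and 5.94 with HL60 and 6.16, 5.50 and 6.40 with ML1. In ch+ libraries it read 3.14, 4.69 and 3.51 with HL60 and 3.22, 3.59 and 3.16 with ML1, and in ctrl 5.22, 5.54 and 4.11. All ch+ libraries lay below all ch- libraries, with ch+ HL60 524 the highest of them, and ctrl lay between and overlapped both. The difference of ch+ from ch- was −2.41 (SE 0.34, limma adjusted p = 1.37e-05), lower in 6 of 6 libraries.

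Kcna2 (ENSMUSG00000040724, chr3:107101146-107115005, plus strand), another Shaker-type subunit, read 6.59, 7.39 and 7.28 in ch- HL60 and 7.39, 6.54 and 5.89 in ch- ML1. The ch+ levels were 4.55, 5.42 and 3.51 in HL60 and 4.68, 3.68 and 4.08 in ML1, and the ctrl levels 6.65, 7.38 and 5.90. No ch+ library reached the lowest ch- or ctrl library. Kcna2 differed between ch+ and ch- by −2.53 (SE 0.35, limma adjusted p = 8.73e-06), lower in 6 of 6 libraries.

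Kcna6 (ENSMUSG00000038077, chr6:126708329-126740674, minus strand), the third Shaker-type gene of this set, had ch- levels of 6.62, 6.28 and 6.40 with HL60 and 5.82, 6.92 and 5.23 with ML1. Its ch+ levels were 6.07, 3.16 and 3.27 with HL60 and 3.26, 3.06 and 3.35 with ML1, and its ctrl levels 7.51, 5.62 and 6.23. A single ch+ library, HL60 523, stood among the ch- and ctrl libraries, and the other 5 were far below. The pooled difference was −2.52 (SE 0.43, limma adjusted p = 0.000186). Within HL60 the difference of Kcna6 was −2.27 (SE 0.59, limma adjusted p = 0.0277), and it missed the threshold when 1 of the low ch+ libraries was left out (−1.76 without ch+ HL60 524 and −1.82 without ch+ HL60 525).

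Kcnc2 (ENSMUSG00000035681, chr10:112271121-112467024, plus strand), a Shaw-type gene whose channel lets neurons fire fast, was the one member higher in ch+. Its ch- levels were 3.16, 2.57 and 2.5 with HL60 and 2.60, 2.65 and 2.55 with ML1. Its ch+ levels were 3.85, 5.49 and 4.14 with HL60 and 5.04, 4.51 and 5.25 with ML1, and its ctrl levels 3.65, 4.42 and 3.20. Every ch+ library lay above every ch- library, and ctrl lay between, above the ch- libraries and overlapping the lower ch+ libraries. Apart from ch- HL60 527, the ch- libraries lay at 2.5 to 2.65, near the lowest level of this gene in any library. Few or no reads can give such levels, so their small spread does not show a reproducible level. Kcnc2 differed by 2.04 (SE 0.29, limma adjusted p = 1.19e-05), higher in 6 of 6 libraries. Within HL60, in the fit of 7 groups, the difference was 1.75 (SE 0.41, limma adjusted p = 0.0125), and it missed the threshold at 1.25 without ch+ HL60 524. With only the ctrl and HL60 libraries in the fit it also passed.

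Among two-pore-domain genes, Kcnk3 (ENSMUSG00000049265, chr5:30588170-30625271, plus strand) encodes an acid-sensitive background channel that is also found in vascular smooth muscle. It read 6.60, 6.28 and 6.06 in ch- HL60 and 6.53, 7.03 and 6.16 in ch- ML1. The ch+ levels were 3.40, 4.75 and 3.38 in HL60 and 3.51, 3.30 and 3.42 in ML1, and the ctrl levels 6.31, 7.20 and 6.42. The ch+ libraries formed a low group, apart from HL60 524, which was higher than the rest but below all ch- and ctrl libraries. Kcnk3 differed by −2.82 (SE 0.32, limma adjusted p = 3.43e-07), lower in 6 of 6 libraries, the largest difference among the tested members in this comparison.

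The inward rectifier gene Kcnj10 (ENSMUSG00000044708, chr1:172341210-172374085, plus strand) is known for potassium buffering in glia. It had ch- levels of 4.35, 4.59 and 4.16 with HL60 and 3.69, 3.31 and 3.64 with ML1. In ch+, it had 2.62, 2.62 and 2.58 with HL60 and 2.65, 3.79 and 2.75 with ML1, and in ctrl 2.78, 3.86 and 2.90. ML1 539 alone among the ch+ libraries reached into the ch- range. The other ch+ libraries lay at 2.58 to 2.75, near the lowest level of this gene, where few or no reads can give such values. The difference was −1.12 (SE 0.28, limma adjusted p = 0.0141) over both lines, −1.76 (SE 0.38, limma adjusted p = 0.00464) in HL60 and −0.48 (SE 0.38, limma adjusted p = 0.628) in ML1. The test of the difference between the lines gave −1.27 (SE 0.53, limma adjusted p = 0.714).

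Kcnmb1 (ENSMUSG00000020155, chr11:33963013-33973641, plus strand) encodes the accessory subunit that raises the calcium sensitivity of large-conductance channels in smooth muscle. Its ch- levels were 5.61, 6.51 and 5.52 with HL60 and 4.29, 6.88 and 5.72 with ML1. The ch+ levels were 5.38, 3.79 and 3.22 with HL60 and 3.94, 3.27 and 4.35 with ML1, and the ctrl levels 7.35, 7.15 and 6.65. Most ch+ libraries were below the ch- libraries, with overlap through ch+ HL60 523 and ch- ML1 543, and ctrl was above both apart from 1 ch- library. Kcnmb1 differed between ch+ and ch- by −1.77 (SE 0.41, limma adjusted p = 0.00667). In the fit of 7 groups, the difference was −1.75 (SE 0.57, limma adjusted p = 0.116) in HL60 and −1.78 (SE 0.57, limma adjusted p = 0.102) in ML1, both short of the threshold. With only the ctrl and HL60 libraries in the fit, −1.75 passed it, and with only the ctrl and ML1 libraries −1.78 did not.

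**Figure D1:**
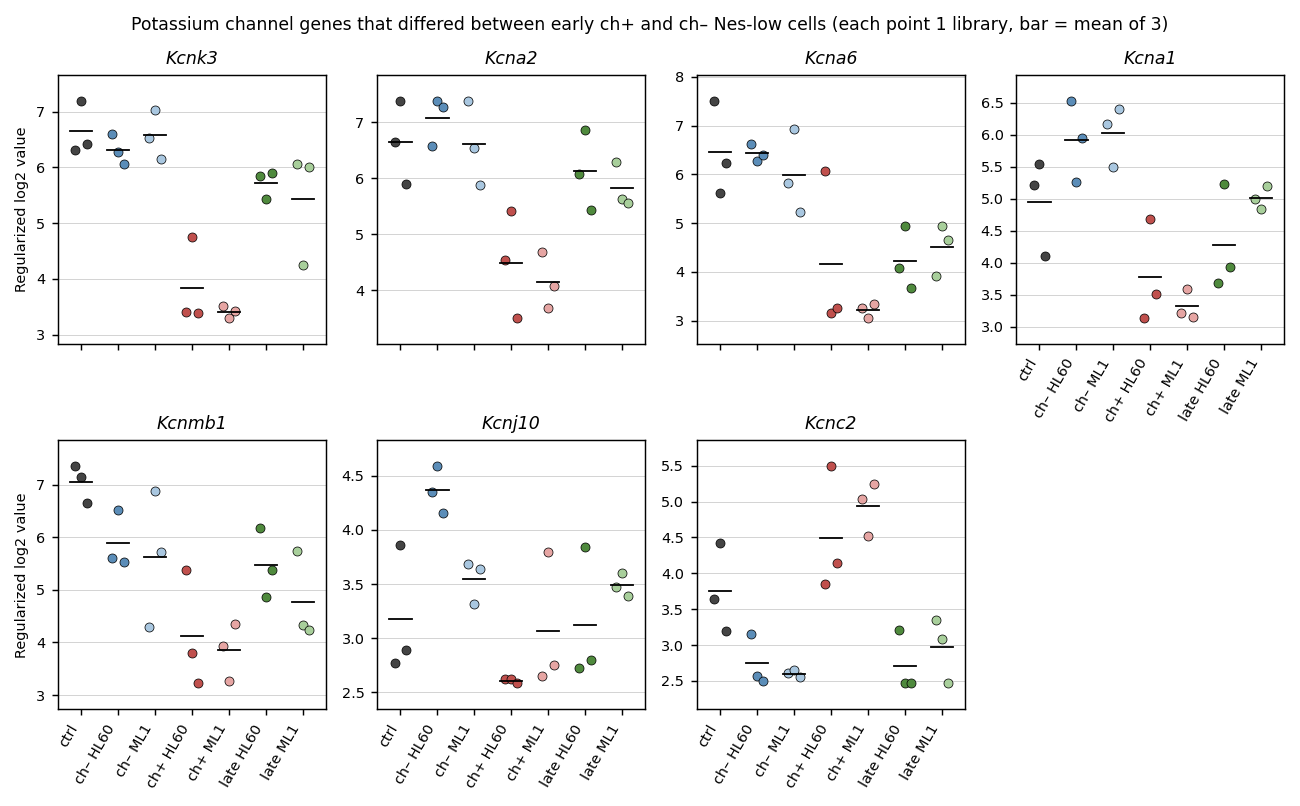
Regularized log2 values of 7 members deregulated between early ch+ and early ch- cells, in 7 panels with the 7 groups on the horizontal axis, where each point is 1 library and each bar the mean of 3. Kcnk3 lay between 3.30 and 4.75 in ch+ and between 6.06 and 7.03 in ch-, and Kcnc2 ran the other way.

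The cell lines were also examined apart, with no library in common. In HL60, 7 of the 32 tested members were deregulated between ch+ and ch- (1 higher and 6 lower), against 3.92% of all tested genes. In ML1 there were 6 (1 higher and 5 lower, or 2 higher and 5 lower with libraries rescaled to equal totals, a share of higher members of 16.7% or 28.6%), against 4.25% of all tested genes, or 5.83% rescaled. Deregulated in both lines were 6 members, among them Kcna1, Kcna2, Kcna6, Kcnk3 and Kcnc2. Kcnk3 differed by −2.47 in HL60 and −3.16 in ML1. Kcna1 differed by −2.13 in HL60 and −2.70 in ML1. The sign of the difference was the same in both lines for 26 of the 32 members (81.2%), and for 7664 of the 12976 tested genes (59.1%). Across genes, which are not independent replicates, Pearson's r between the lines was 0.832 over the members and 0.445 over all tested genes. A test of the difference between the lines called no member in limma, with 3 members at an unadjusted p under 0.05, and 0.00771% of all tested genes.

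Markers of other cell types moved along with these members. Of 8 smooth muscle markers, 6 were lower in ch+ than in ch-, and their summed level was 11.87 to 12.65 (median 12.17) in ch+, 13.07 to 13.94 (median 13.50) in ch- and 13.62 to 14.74 (median 14.08) in ctrl. Mylk was the most abundant of them in ch+ and Myh11 in ch- and ctrl. Of 4 tested pericyte markers of 6, 3 were lower, with summed levels of 12.74 to 12.94 (median 12.86) in ch+ and 13.10 to 13.74 (median 13.48) in ch-. Rgs5 was the most abundant pericyte marker, and Higd1b had a mean of 1.33 over all libraries. Of 5 tested Schwann cell markers of 6, 4 were lower and 1 was higher, with Sox10 at a mean of 3.17 in ch+ and 5.36 in ch- and S100b the most abundant. Summed, the Schwann cell markers came to 7.90 to 8.93 (median 8.65) in ch+ and 8.44 to 9.0 (median 8.60) in ch-. Of 11 tested chondrocyte markers of 12, 10 were lower, with sums of 14.14 to 15.35 (median 14.75) in ch+ and 15.66 to 16.68 (median 16.18) in ch-, and Col2a1 or Col11a2 the most abundant. Of 5 tested skeletal muscle markers limma called 0 between ch+ and ch-, with 2 at an unadjusted p under 0.05, and 1 was higher with libraries rescaled to equal totals. In the fit of 7 groups, 2 skeletal muscle markers were higher and 1 osteoblast marker was lower in ch+ within ML1, and 1 endothelial marker was higher within HL60. Their part in the result was not tested. Of 9 stromal markers 1 was higher in ch+ than in ch- (2 rescaled and 0 after quantile normalization), and 2 had an unadjusted p under 0.05. The stromal marker Adipoq had a mean of 12.01 in ch+ and 11.42 in ch-. Nes itself differed by −0.02 between ch+ and ch- in limma (adjusted p = 0.978).

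Against ctrl, ch+ cells had lower levels of Kcnk3, Kcnmb1, Kcna1, Kcna2 and Kcna6, all of them also lower than in ch-, and of Kcnk5, Kcnab1 and Kcnq5, whereas Kcnq3 was higher. Kcnmb1 had a mean of 3.99 ± 0.80 (SD, n = 6) in ch+ and 7.05 ± 0.36 (SD, n = 3) in ctrl. In limma, 10 of the 32 tested members were deregulated (31.2%), against 6.17% of all tested genes, of which 9 were lower, against 2.75%, and 1 was higher. The groups did not overlap for 7 members, against 8.06% of all tested genes. The median difference was −0.32 over the tested members and 0.01 over all tested genes. By class, 5 of 12 voltage-gated genes were lower and 1 was higher, and 2 of 5 two-pore-domain and 2 of 6 accessory genes were lower. Of 4 tested inward rectifiers limma called 0, with 1 at an unadjusted p under 0.05. Of 4 tested calcium- or sodium-activated genes it called 0, with 2 at an unadjusted p under 0.05, of which Kcnma1 differed by −0.89, with 6 of 6 libraries below all ctrl libraries. Kcnma1 was called lower with the HL60 libraries alone, at −0.60, and with the ML1 libraries alone, at −1.18, and in the fit of 7 groups it was called in ch+ ML1 but not in ch+ HL60. In ch- cells, 1 of the 32 tested members was deregulated against ctrl in limma, against 1.92% of all tested genes, and 8 members had an unadjusted p under 0.05. This was Kcnq3, which was higher, whereas quantile normalization gave 1 higher and 1 lower member, a share of higher members of 50% in place of 100%, and called 1.96% of all tested genes. Without ctrl 374 or without ctrl 375 the count was 0. The median difference of ch- from ctrl was 0.12 over the tested members and 0.01 over all tested genes. Both early groups are compared with the same 3 ctrl libraries.

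The ch+ levels of Kcnk3, given above, were below ctrl in 6 of 6 libraries, with a difference of −3.02 (SE 0.39, limma adjusted p = 8.93e-06). For Kcnmb1 the difference was −3.06 (SE 0.50, limma adjusted p = 0.000209), also with 6 of 6 libraries below ctrl. Kcna2 differed by −2.32 (SE 0.42, limma adjusted p = 0.000764), with all ch+ libraries below ctrl. Kcna6 differed by −2.76 (SE 0.52, limma adjusted p = 0.0012), with ch+ HL60 523 inside the ctrl range. Kcna1 differed by −1.40 (SE 0.42, limma adjusted p = 0.0536), and missed the threshold without either of 2 ctrl libraries (−1.27 without ctrl 373 and −1.11 without ctrl 374) or with HL60 alone (−1.17). In ch- none of these passed in limma. Kcnmb1 differed between ch- and ctrl by −1.30 (SE 0.50, limma adjusted p = 0.273). Kcna1 differed between ch- and ctrl by 1.01 (SE 0.42, limma adjusted p = 0.315).

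Kcnq3 and Kcnq5 encode subunits of the slow M-type current. Kcnq3 (ENSMUSG00000056258, chr15:65986387-66286642, minus strand) read 7.25, 4.51 and 4.89 in ctrl. Its ch- levels were 7.81, 9.46 and 8.00 with HL60 and 7.37, 6.07 and 8.01 with ML1, and its ch+ levels 7.07, 6.82 and 8.44 with HL60 and 7.07, 8.92 and 7.13 with ML1. A pair of ctrl libraries was low and ctrl 373 was within the range of the leukemic groups. Kcnq3 was higher than ctrl in ch- by 2.24 (SE 0.58, limma adjusted p = 0.0492) and in ch+ by 2.02 (SE 0.58, limma adjusted p = 0.042). Both calls rest on the low ctrl libraries. The ch- difference was 1.72 without ctrl 374 and 1.91 without ctrl 375, and the ch+ difference 1.5 without ctrl 374 and 1.70 without ctrl 375, none of them past the threshold. Robust empirical Bayes also ended both calls, and for ch- so did fitting without a trend and the use of ML1 alone, at 1.60.

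Kcnq5 (ENSMUSG00000028033, chr1:21398403-21961942, minus strand) read 5.38, 4.67 and 4.15 in ctrl and, in ch-, 3.51, 3.23 and 4.17 with HL60 and 4.47, 3.40 and 4.25 with ML1. In ch+ it read 2.80, 2.80 and 3.24 with HL60 and 2.99, 3.89 and 5.01 with ML1. The HL60 ch+ libraries were low, whereas ch+ ML1 541 was inside the ctrl range. Kcnq5 differed between ch+ and ctrl by −1.28 (SE 0.42, limma adjusted p = 0.0868), close to the threshold. The call ended on leaving out any of 6 libraries: −0.96 without ctrl 373, −1.31 without ctrl 374, −1.15 without ch+ HL60 523, −1.15 without ch+ HL60 524, −1.24 without ch+ HL60 525 and −1.19 without ch+ ML1 538. With ML1 alone the difference was −0.77 and with libraries rescaled to equal totals −1.2, neither past the threshold. A filter of 1, fitting without a trend and the compared groups alone also ended the call.

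Kcnk5 (ENSMUSG00000023243, chr14:20140057-20181809, minus strand) encodes a two-pore-domain channel that responds to extracellular alkalinity and is known from kidney. Its ctrl levels were 5.69, 4.96 and 4.92. In ch- it read 5.12, 5.25 and 3.32 with HL60 and 3.99, 4.23 and 3.48 with ML1, and in ch+ 3.62, 2.76 and 4.86 with HL60 and 2.81, 2.71 and 2.76 with ML1. All ch+ libraries were below ctrl, HL60 525 only narrowly. Kcnk5 differed between ch+ and ctrl by −1.94 (SE 0.48, limma adjusted p = 0.0157), lower in 6 of 6 libraries. It missed the threshold at −1.69 without ctrl 373, and at −1.44 with HL60 alone.

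The accessory gene Kcnab1 (ENSMUSG00000027827, chr3:65109384-65378223, plus strand) encodes a cytoplasmic beta subunit of Shaker-type channels. It read 6.26, 7.48 and 6.74 in ctrl, and in ch- 6.62, 6.24 and 5.23 with HL60 and 6.72, 5.88 and 5.80 with ML1. In ch+ it read 4.39, 4.86 and 5.29 with HL60 and 5.77, 4.16 and 6.10 with ML1. All ch+ libraries were below ctrl, whereas ch- overlapped both. Kcnab1 differed between ch+ and ctrl by −1.73 (SE 0.41, limma adjusted p = 0.0113), and by −1.40 without ctrl 374, which missed the threshold.

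By line, 9 members (2 higher and 7 lower, or 0 higher and 7 lower after quantile normalization, a share of higher members of 22.2% or 0%) were deregulated in ch+ HL60 against ctrl, where 5.33% of all tested genes were, or 5.07% after quantile normalization. In ch+ ML1 there were 10 (1 higher and 9 lower), against 6.69% of all tested genes. In ch- ML1, limma called 0 members against 2.34% of all tested genes, with 7 members at an unadjusted p under 0.05. Quantile normalization called 1 there, which was lower. With only the ctrl and ML1 libraries in the fit, the 1 member called was another, Kcnt1, named here after its values were seen, which was higher at 1.67.

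In ch- HL60, 2 members were deregulated against ctrl, both higher, where 1.57% of all tested genes were: Kcnq3 and Kcnh1. Kcnh1, named here after its values were seen, encodes a channel of the ether-a-go-go type. It read 4.79, 3.65 and 4.08 in ctrl and 5.60, 5.96 and 5.94 in ch- HL60. All ch- HL60 libraries lay above ctrl. The ch+ HL60 levels of Kcnh1 were 4.99, 5.87 and 6.02, also above ctrl, and the late HL60 levels 4.48, 6.21 and 5.57, which overlapped ctrl. Kcnh1 differed between ch- HL60 and ctrl by 1.66 (SE 0.46, limma adjusted p = 0.0846), higher in 3 of 3 libraries. The call was lost on leaving out any of 8 libraries. The difference of Kcnh1 was then 1.40 without ctrl 374, 1.61 without ctrl 375, 1.78 without ch- HL60 527, 1.60 without ch- HL60 528 and 1.60 without ch- HL60 529. It stayed at 1.66 without late ML1 581, late ML1 583 or late HL60 399. Kcnq3 differed in ch- HL60 by 2.88 (SE 0.63, limma adjusted p = 0.0141), and missed the threshold at 2.36 without ctrl 374 and at 2.36 without ch- HL60 528. The count of 2 thus became 0 without ch- HL60 528 and 1 without any of the other libraries just named, where without ctrl 374 that 1 was neither Kcnq3 nor Kcnh1.

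Kcnh1 was also called against the same ctrl libraries in the other HL60 groups. In ch+ HL60 it was higher by 1.45 (SE 0.46, limma adjusted p = 0.0796), and missed the threshold at 1.19 without ctrl 374, 1.40 without ctrl 375, 1.33 without ch+ HL60 524 and 1.26 without ch+ HL60 525. In late HL60 it was higher by 1.25 (SE 0.46, limma adjusted p = 0.0864), and missed it at 0.99 without ctrl 374, 1.2 without ctrl 375, 0.85 without late HL60 398, 1.17 without late HL60 399 and 1.25 without late ML1 581. A filter of 1, quantile normalization and the compared groups alone each ended all 3 HL60 calls of Kcnh1, and so did a fit of only the ctrl and HL60 libraries. With ML1 it differed from ctrl by 0.41 in ch-, 0.26 in ch+ and 0.19 in late, none of them past the threshold.

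Erythroid markers and neutrophil and myeloid markers were higher in both early groups than in ctrl, and limma called 0 of them between ch+ and ch-, with 0 at an unadjusted p under 0.05. All 8 neutrophil and myeloid markers were higher in ch+ and 7 in ch-, with summed levels of 8.04 to 9.26 (median 8.88) in ctrl, 10.63 to 11.65 (median 10.90) in ch- and 10.23 to 11.49 (median 11.10) in ch+, and Lyz2 the most abundant. All 7 erythroid markers were higher in ch+ and 6 in ch-, with sums of 8.35 to 9.43 (median 8.75) in ctrl, 12.27 to 13.30 (median 12.88) in ch- and 12.05 to 13.63 (median 13.03) in ch+, and Hbb-bs the most abundant. Of 2 tested megakaryocyte markers of 5 limma called 0 in ch+ and 0 in ch- against ctrl, with 0 at an unadjusted p under 0.05, and the sums were 4.69 to 5.59 (median 5.30) in ctrl, 4.91 to 6.28 (median 5.55) in ch- and 4.91 to 6.23 (median 5.38) in ch+. Lymphocyte markers were too low to test. Of 5 tested skeletal muscle markers of 8, 5 were higher in ch+ and 1 in ch-, with sums of 6.55 to 7.40 (median 6.67) in ctrl, 7.89 to 9.48 (median 8.52) in ch- and 8.13 to 9.79 (median 9.0) in ch+, and Ttn the most abundant. Against ctrl, 6 of 8 smooth muscle, 3 of 4 tested pericyte, 4 of 5 tested Schwann cell and 10 of 11 tested chondrocyte markers were lower in ch+. In ch- limma called 0 of these, with 4, 0, 1 and 1 at an unadjusted p under 0.05 in this order. Of 9 stromal markers, 5 were higher in ch+, and limma called 0 in ch-, with 5 at an unadjusted p under 0.05. Of 9 osteoblast and 6 tested endothelial markers, limma called 0 in ch+ and 0 in ch-, with 0 at an unadjusted p under 0.05. In the fit of 7 groups, 3 osteoblast markers were lower than ctrl in ch+ HL60 and 2 in ch+ ML1. In ch- ML1, 2 smooth muscle and 1 chondrocyte marker were lower and 4 stromal markers were higher, and within HL60 1 neutrophil and myeloid marker was higher in ch+ than in ch-. Per the methods of the study, human and mouse blood cells were depleted by CD45. The remaining cells were stained for CD45 and Ter119, markers of blood cells, before the sort. The part of all these markers in the result was not tested.

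At the late stage, Kcnma1, Kcnmb1, Kcnh2, Kcna6, Kcnk1 and Kcnk5 were lower than in ctrl, and Kcnip3, Kcne4, Kcnq3 and Kcnj15 were higher, both on the deposited scale and with libraries rescaled to equal totals. Kcnma1 had a mean of 7.05 ± 1.08 (SD, n = 6) in late and 9.67 ± 0.06 (SD, n = 3) in ctrl. Kcnip3 had 9.0 ± 0.57 (SD, n = 6) in late and 7.42 ± 0.84 (SD, n = 3) in ctrl. In limma, 15 of the 32 tested members were deregulated (46.9%), against 21.5% of all tested genes. On the deposited scale 11 of them were lower, against 11.4% of all tested genes, and 4 were higher, whereas with libraries rescaled to equal totals, where 64.0% of all tested genes were called, 7 were lower and 11 were higher. Of the 8302 genes then called, 7786 were higher. The share of higher members among those called thus went from 26.7% to 61.1%, and 11 of the 15 were called in the same direction under both scalings. As deposited, the median level of the tested genes in a library was 6.81 to 6.82 in ctrl and 6.77 to 6.84 in late. The highest level in a library was 21.75 to 22.10 in ctrl and 20.22 to 21.17 in late. Col1a1 had a mean of 20.32 in ctrl and 17.40 in late. The part of abundant genes in the lower late totals was not tested. The groups did not overlap for 10 members, against 19.1% of all tested genes. The median difference was −0.36 over the tested members and 0.02 over all tested genes.

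By class, of 12 tested voltage-gated genes 5 were lower and 1 was higher in late on the deposited scale, and 3 were lower and 3 higher with rescaled libraries. Of 5 two-pore-domain genes 4 were lower as deposited and 2 rescaled, none higher. Of 4 inward rectifiers 1 was higher as deposited and 4 rescaled. Of 4 calcium- or sodium-activated genes 1 was lower as deposited, and 1 was lower and 2 were higher rescaled. Of 6 accessory genes 2 were higher and 1 was lower on both scales. After rescaling, Kcnq5, Kcnk3, Kcnk6 and Kcnc2 were no longer deregulated, with differences of −0.73, −0.37, −0.32 and −0.22. Kcna6, Kcnk1, Kcnk5 and Kcnmb1 were deregulated with smaller differences, at −1.39, −1.14, −1.23 and −1.24, and Kcnj15 was larger at 1.90. The 7 members called with rescaled libraries only, among 8302 genes called on that scale, were all higher: Kcnd1, Kcnh1, Kcnj2, Kcnj8, Kcnj10, Kcnt1 and Kcnt2.

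Kcnma1 (ENSMUSG00000063142, chr14:23289431-24014491, minus strand) encodes the pore of the large-conductance channel that opens with calcium and voltage. It read 9.69, 9.60 and 9.71 in ctrl. In late it read 7.77, 8.24 and 7.96 with HL60 and 6.57, 6.06 and 5.69 with ML1. Its early levels were 9.04 to 9.57 (median 9.39) in ch- and 8.23 to 9.20 (median 8.88) in ch+. Late libraries were below all ctrl libraries in both lines, those of ML1 below those of HL60, and only late HL60 398 came up to the lowest ch+ library. Kcnma1 differed between late and ctrl by −2.62 (SE 0.37, limma adjusted p = 5.88e-06), lower in 6 of 6 libraries. With the HL60 libraries alone the difference was −1.68, again past the threshold.

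Kcnmb1, the accessory subunit of the same channel, read 6.18, 4.87 and 5.38 in late HL60 and 5.74, 4.34 and 4.23 in late ML1, all below the ctrl levels given above and overlapping both early groups. The difference of late from ctrl was −1.93 (SE 0.50, limma adjusted p = 0.00635), and −1.58 with HL60 alone, which also passed.

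Among voltage-gated genes, Kcnh2 (ENSMUSG00000038319, chr5:24319589-24351604, minus strand) encodes the ether-a-go-go related channel that helps end the cardiac action potential. Its ctrl levels were 6.38, 6.50 and 5.65, and its early levels 5.37 to 6.81 (median 5.75) in ch- and 4.61 to 6.38 (median 5.65) in ch+. In late it read 3.84, 3.95 and 5.73 with HL60 and 3.06, 3.07 and 3.15 with ML1. Late HL60 399 was inside the ctrl range, and the other late libraries were below it. Kcnh2 differed between late and ctrl by −2.37 (SE 0.47, limma adjusted p = 0.000507), lower in 6 of 6 libraries than the ctrl mean, and by −1.67 with HL60 alone, which also passed.

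Kcna6 read 4.08, 4.93 and 3.67 in late HL60 and 3.91, 4.93 and 4.66 in late ML1, below every ctrl library, with a difference of −2.09 (SE 0.52, limma adjusted p = 0.00493), or −2.22 with HL60 alone, which also passed. Kcnq5 read 3.10, 3.41 and 3.26 in late HL60 and 3.19, 2.72 and 4.20 in late ML1, where ML1 583 overlapped ctrl. The difference of Kcnq5 was −1.42 (SE 0.42, limma adjusted p = 0.0178), and it missed the threshold at −1.10 without ctrl 373.

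Kcnq3 read 8.68, 7.70 and 6.72 in late HL60 and 6.97, 8.23 and 6.94 in late ML1, above the low pair of ctrl libraries and around ctrl 373. Kcnq3 was higher than ctrl by 1.99 (SE 0.58, limma adjusted p = 0.0156), and the call was lost at 1.47 without ctrl 374 and at 1.66 without ctrl 375. Kcnc2 read 3.21, 2.47 and 2.47 in late HL60 and 3.35, 3.09 and 2.47 in late ML1, overlapping ctrl. Kcnc2 differed from ctrl by −0.91 (SE 0.35, limma adjusted p = 0.0745). The call was lost on leaving out any of 5 libraries: −0.97 without ctrl 373, −0.58 without ctrl 374, −0.84 without late HL60 398, −0.84 without late HL60 399 and −0.84 without late ML1 583. With HL60 alone it was −1.04 and with ML1 alone −0.78, neither past the threshold.

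The Shaker-type genes Kcna1 and Kcna2, low in ch+, were not called between late and ctrl. Kcna1 read 3.69, 5.23 and 3.94 in late HL60 and 4.99, 4.84 and 5.20 in late ML1, overlapping ctrl, and differed from ctrl by −0.31 (SE 0.42, limma adjusted p = 0.705). Kcna2 read 6.08, 6.86 and 5.44 in late HL60 and 6.29, 5.62 and 5.56 in late ML1, also overlapping ctrl, and differed by −0.67 (SE 0.42, limma adjusted p = 0.33).

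Of the two-pore-domain genes, Kcnk1 (ENSMUSG00000033998, chr8:125995170-126030685, plus strand) encodes a weakly inward rectifying background channel. It read 8.65, 8.10 and 7.67 in ctrl, with early levels of 7.66 to 8.52 (median 7.93) in ch- and 7.35 to 8.26 (median 7.81) in ch+. In late it read 7.65, 7.46 and 7.25 with HL60 and 4.87, 5.73 and 4.85 with ML1. The HL60 late libraries lay just below the lowest ctrl library and the ML1 late libraries far below. The pooled difference was −1.84 (SE 0.45, limma adjusted p = 0.00439). It was −0.68 with HL60 alone, which missed the threshold, and −2.99 with ML1 alone.

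Kcnk5 read 4.71, 2.96 and 2.96 in late HL60 and 2.90, 3.30 and 2.78 in late ML1, below ctrl throughout with HL60 397 the highest. It differed from ctrl by −1.92 (SE 0.48, limma adjusted p = 0.0047), and by −1.65 with HL60 alone, which also passed. Kcnk6 (ENSMUSG00000046410, chr7:29221926-29232515, minus strand), a relative of Kcnk1, read 8.01, 7.22 and 7.53 in ctrl, and 7.04 to 8.12 (median 7.45) in ch- and 6.60 to 7.83 (median 7.09) in ch+. In late it read 6.81, 6.52 and 6.56 with HL60 and 6.75, 6.04 and 6.79 with ML1, below all ctrl libraries. Kcnk6 differed from ctrl by −1.01 (SE 0.28, limma adjusted p = 0.0119), and by −0.80 without ctrl 373, which missed the threshold. Kcnk3 read 5.84, 5.43 and 5.90 in late HL60 and 6.05, 4.24 and 6.0 in late ML1, just below ctrl except for the lower ML1 582. Its difference was −1.06 (SE 0.39, limma adjusted p = 0.0593), and it missed the threshold at −0.79 without ctrl 374, at −0.80 without late ML1 582 and at −0.92 with HL60 alone.

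Kcnip3 (ENSMUSG00000079056, chr2:127456498-127522094, minus strand) encodes a calcium-binding protein that joins Shal-type channels and also binds DNA as a repressor. It read 8.38, 6.86 and 7.01 in ctrl, with early levels of 7.22 to 7.77 (median 7.54) in ch- and 7.65 to 8.41 (median 7.91) in ch+. Its late levels were 9.04, 10.12 and 8.86 with HL60 and 8.57, 8.75 and 8.66 with ML1. Every late library was above every ctrl and early library, HL60 398 by the widest margin. Kcnip3 was higher in late by 1.58 (SE 0.29, limma adjusted p = 0.000182), in 6 of 6 libraries, and by 1.92 with HL60 alone, which also passed.

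Kcne4 (ENSMUSG00000047330, chr1:78816758-78820028, plus strand) encodes a single-span subunit that can silence Kcnq1 channels. It read 7.08, 7.76 and 8.32 in ctrl, and 7.10 to 8.97 (median 8.12) in ch- and 6.64 to 8.04 (median 7.54) in ch+. In late it read 8.45, 9.60 and 8.37 with HL60 and 9.32, 9.74 and 9.64 with ML1. Late libraries were above ctrl, HL60 399 by little, and overlapped the top of ch-. Kcne4 was higher in late than in ctrl by 1.47 (SE 0.36, limma adjusted p = 0.00367), in 6 of 6 libraries, and by 1.09 with HL60 alone, which also passed. In the comparison of late HL60 with ctrl, the difference of Kcne4 ranged from 0.69 to 1.66 over 30 alternatives, of which 6 ended the call.

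The inward rectifier gene Kcnj15 (ENSMUSG00000062609, chr16:95257558-95300260, plus strand) is known from kidney. It read 6.39, 6.86 and 5.85 in ctrl, and 5.70 to 7.66 (median 6.64) in ch- and 5.57 to 7.47 (median 7.21) in ch+. In late it read 8.06, 9.12 and 7.30 with HL60 and 7.22, 6.63 and 7.12 with ML1. The HL60 late libraries were above ctrl, and ML1 582 was inside the ctrl range. Kcnj15 was higher than ctrl by 1.2 (SE 0.44, limma adjusted p = 0.0619). The call was lost on leaving out any of 4 libraries: 1.22 without ctrl 373, 0.95 without ctrl 375, 1.11 without late HL60 397 and 0.89 without late HL60 398. With array weights it was 1.06 and with ML1 alone 0.62, neither past the threshold. Kcnj10, which overlapped ctrl, read 2.72, 3.84 and 2.80 in late HL60 and 3.47, 3.60 and 3.39 in late ML1, and its difference from ctrl was 0.13 (SE 0.35, limma adjusted p = 0.867). Kcnab1 read 6.43, 6.57 and 6.35 in late HL60 and 5.76, 5.66 and 5.45 in late ML1, where the HL60 libraries overlapped ctrl, and differed by −0.79 (SE 0.41, limma adjusted p = 0.218). By line, Kcnab1 differed from ctrl in late ML1 by −1.2 (SE 0.46, limma adjusted p = 0.0727), past the threshold, and by −0.37 in late HL60, where it was not called. The ML1 call was lost on leaving out any of 5 libraries: −0.87 without ctrl 374, −1.24 without ctrl 375, −1.27 without late ML1 581, −1.22 without late ML1 582 and −1.11 without late ML1 583. Rescaling, at −0.38, also ended it.

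**Figure D2:**
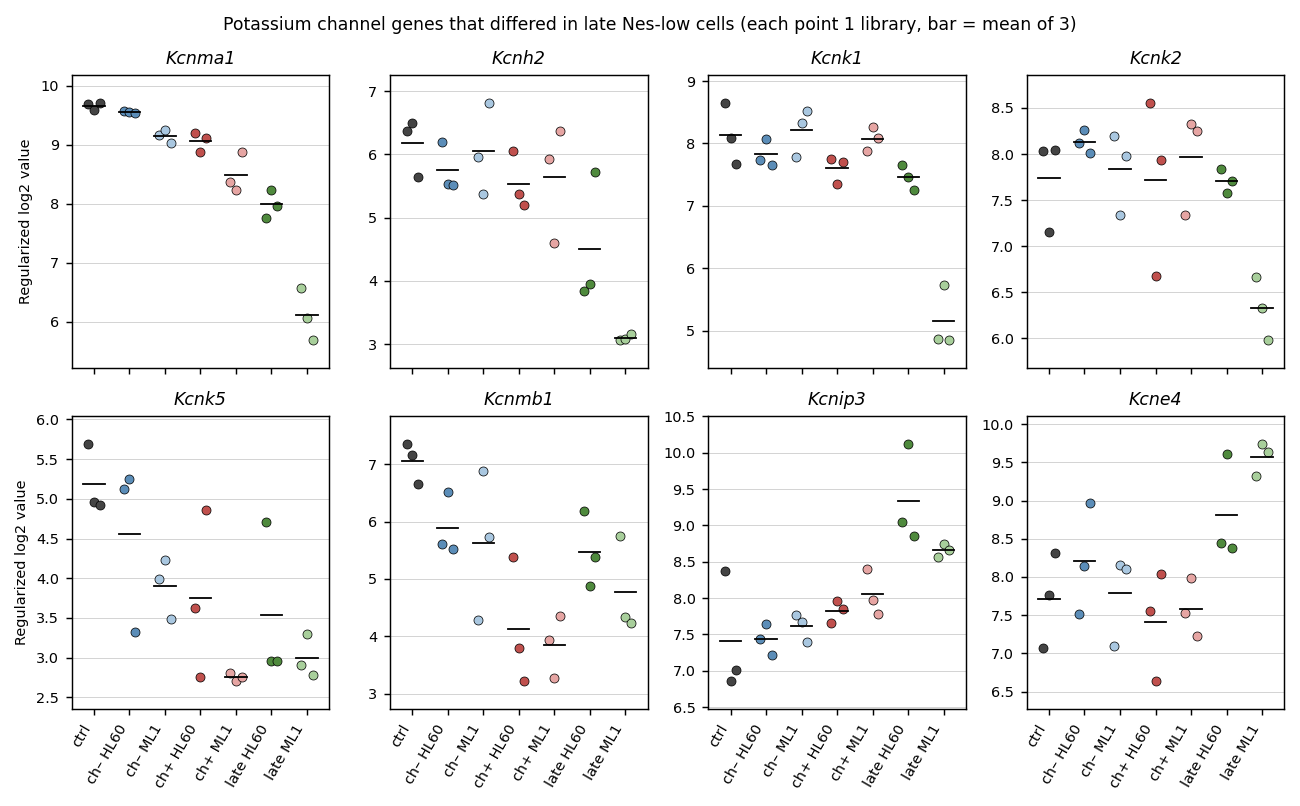
Regularized log2 values of 8 members in 8 panels with the 7 groups on the horizontal axis, where each point is 1 library and each bar the mean of 3. Kcnma1 lay between 5.69 and 8.24 in late and at 9.04 or above in ch- and ctrl, and Kcnip3 lay between 8.57 and 10.12 in late.

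By line, 13 members (5 higher and 8 lower, or 8 higher and 3 lower with libraries rescaled to equal totals, a share of higher members of 38.5% or 72.7%) were deregulated between late HL60 and ctrl, against 13.7% of all tested genes, or 42.6% rescaled. The count was 7 without ctrl 373, 8 without ctrl 374, 5 without late HL60 398 and 8 without late HL60 399. Between late ML1 and ctrl, 15 members (3 higher and 12 lower, or 9 higher and 7 lower rescaled, a share of higher members of 20% or 56.2%) were deregulated, against 22.0% of all tested genes, or 67.7% rescaled.

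Other cell types also moved with the late stage. Of 9 osteoblast markers, 8 were lower in late than in ctrl, with summed levels of 15.95 to 18.89 (median 17.65) in late and 20.24 to 20.69 (median 20.39) in ctrl, and Col1a1 the most abundant. All 11 tested chondrocyte markers of 12 were lower, with sums of 11.77 to 14.33 (median 13.06) in late and 16.47 to 17.44 (median 16.75) in ctrl, and Col2a1 the most abundant. Of 8 smooth muscle markers, 5 were lower (2 lower and 1 higher with libraries rescaled to equal totals), with sums of 12.39 to 13.20 (median 12.99) in late and 13.62 to 14.74 (median 14.08) in ctrl. Of 9 stromal markers, 6 were higher and 1 was lower (9 higher when rescaled), with sums of 16.77 to 17.06 (median 16.88) in late and 15.50 to 16.12 (median 15.70) in ctrl, and Cxcl12 the most abundant. Of 4 tested pericyte markers 1 was higher and 2 were lower (1 and 1 rescaled), with sums of 13.27 to 13.56 (median 13.49) in late and 13.39 to 13.82 (median 13.70) in ctrl. As deposited, 2 of 5 tested Schwann cell, 3 of 8 neutrophil and myeloid and 1 of 5 tested skeletal muscle markers were lower, and 0 of these were called rescaled. Of 7 erythroid markers 4 were lower, and 4 were lower and 1 was higher rescaled. Late sums had a median of 8.02 for Schwann cell, 7.61 for neutrophil and myeloid, 6.0 for skeletal muscle and 6.55 for erythroid markers. Of 6 tested endothelial markers of 7, limma called 0 in late, with 1 at an unadjusted p under 0.05 and 2 higher when rescaled, and the sums were 7.38 to 8.22 (median 7.66) in late and 7.87 to 8.28 (median 8.03) in ctrl. Of 5 megakaryocyte markers 2 were tested and limma called 0, with 0 at an unadjusted p under 0.05, and Gp9 had a mean of −0.39. Of 5 lymphocyte markers 4 were in the table, all of them too low to test, with sums of 1.77 to 1.79 in late and 1.77 to 1.78 in ctrl. The part of these markers in the result was not tested.

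Kcnk1, Kcnma1 and Kcnk2 were among 4 members that differed between HL60 and ML1 in the late stage, all higher with HL60, whereas with libraries rescaled to equal totals 4 of 5 called members were (100% or 80%). These were 4 of the 32 tested members, against 4.09% of all tested genes (5.43% rescaled), and 11 members had an unadjusted p under 0.05. For Kcnk1 and Kcnma1, whose levels are given above, every late HL60 library was above every late ML1 library. Kcnk1 was higher with HL60 by 2.31 (SE 0.29, limma adjusted p = 2.07e-06). Kcnma1 was higher with HL60 by 1.88 (SE 0.22, limma adjusted p = 4.53e-07).

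Kcnk2 (ENSMUSG00000037624, chr1:189207930-189402273, minus strand) encodes a background channel that opens with stretch, heat and lipids. It read 8.03, 7.16 and 8.04 in ctrl, and 7.84, 7.57 and 7.71 in late HL60 and 6.67, 6.33 and 5.98 in late ML1. Early levels were 7.33 to 8.26 (median 8.07) in ch- and 6.68 to 8.55 (median 8.09) in ch+. The ML1 late libraries were low, and the HL60 late libraries were within the ctrl range. Kcnk2 differed between the lines by 1.38 (SE 0.36, limma adjusted p = 0.0238), and missed the threshold at 1.21 without late ML1 583 and at 1.32 without late HL60 397. Over both lines, late did not differ from ctrl past the threshold, at −0.73 (SE 0.38, limma adjusted p = 0.218). By line, Kcnk2 differed from ctrl in late ML1 by −1.42 (SE 0.36, limma adjusted p = 0.0046), past the threshold, though by −0.60 and not called with rescaled libraries, and in late HL60 it differed by −0.04 and was not called. Kcnh2, which was lowest in late ML1, differed between the lines by 1.41 (SE 0.50, limma adjusted p = 0.165), and Kcnj15 by 1.17 (SE 0.45, limma adjusted p = 0.228), neither past the threshold.

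In ch+, limma called 0 members between HL60 and ML1, with 3 at an unadjusted p under 0.05, and 0.0154% of all tested genes. In ch- it also called 0 members, with 3 at an unadjusted p under 0.05, and 0.0539% of all tested genes. Marker lists differed between the lines in late: all 9 osteoblast markers and 7 of 11 tested chondrocyte markers were higher with HL60, and the summed osteoblast level was 18.54 to 18.89 (median 18.86) with HL60 and 15.95 to 16.76 (median 16.22) with ML1. Their part in the result was not tested.

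Late was also compared with ch+, the marked cells of the early stage. Kcnk3, Kcna2, Kcna1, Kcne4 and Kcnip3 were higher in late than in ch+, and Kcnma1, Kcnh2, Kcnk1 and Kcnc2 were lower. In limma, 16 of the 32 tested members were deregulated (50%), against 19.7% of all tested genes. Of them 7 were lower, against 10.9% of all tested genes, and 9 were higher, whereas with rescaled libraries, where 69.6% of all tested genes were called, 4 were lower and 16 higher (56.2% or 80% higher). Of the 9031 genes called after rescaling, 8443 were higher. The median difference was 0.06 over the tested members and 0.02 over all tested genes.

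Markers of other cell types differed between late and ch+ as well. Of 8 smooth muscle markers 5 were higher in late (8 with libraries rescaled to equal totals), with summed levels of 12.39 to 13.20 (median 12.99) in late and 11.87 to 12.65 (median 12.17) in ch+, and Mylk the most abundant. All 7 erythroid, all 8 neutrophil and myeloid and all 5 tested skeletal muscle markers were lower on both scales. Summed, the erythroid markers came to 6.48 to 6.94 (median 6.55) in late and 12.05 to 13.63 (median 13.03) in ch+. The neutrophil and myeloid sums were 6.78 to 8.01 (median 7.61) in late and 10.23 to 11.49 (median 11.10) in ch+, and those of skeletal muscle 5.77 to 6.40 (median 6.0) and 8.13 to 9.79 (median 9.0). Of 9 osteoblast markers 8 were lower (8 lower and 1 higher rescaled), with sums of 15.95 to 18.89 (median 17.65) in late and 19.82 to 20.06 (median 19.89) in ch+. Of 9 stromal markers 4 were higher and 2 were lower (8 and 1 rescaled), and of 4 tested pericyte markers 2 were higher and 1 was lower (3 and 1 rescaled). The stromal sums had a median of 16.88 in late and 16.57 in ch+, and the pericyte sums of 13.49 and 12.86. Of 5 tested Schwann cell markers 2 were higher and 1 was lower (4 higher rescaled), and of 11 tested chondrocyte markers 2 were lower (5 higher and 1 lower rescaled). Of 6 tested endothelial markers 3 were lower (2 higher rescaled), with median sums of 7.66 in late and 8.40 in ch+, and of 2 tested megakaryocyte markers 1 was lower (0 called rescaled). The part of these lists in the result was not tested.

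Kcnk3 was higher in late than in ch+ by 1.95 (SE 0.32, limma adjusted p = 3.05e-05), with a mean between those of ch+ and ctrl. Kcna2, whose late mean also lay between those of ch+ and ctrl, was higher by 1.65 (SE 0.35, limma adjusted p = 0.000766). Kcne4 was higher by 1.69 (SE 0.29, limma adjusted p = 6.84e-05) with no overlap between the groups. Kcnip3 was higher by 1.06 (SE 0.24, limma adjusted p = 0.00159), again without overlap, and by 0.61 with ML1 alone, which missed the threshold. Kcna1 was higher by 1.10 (SE 0.34, limma adjusted p = 0.0249), though by 0.50 with HL60 alone, which missed it, and by 1.69 with ML1 alone, which passed. Kcnc2, which passed the filter only through ch+, differed by −1.87 (SE 0.29, limma adjusted p = 1.25e-05), with all late libraries below all ch+ libraries. Kcnma1 differed by −1.73 (SE 0.30, limma adjusted p = 8.64e-05), and by −1.07 with HL60 alone, which also passed. Kcnh2 differed by −1.79 (SE 0.39, limma adjusted p = 0.00112), and by −1.03 with HL60 alone, which missed the threshold. Kcnk1 differed by −1.54 (SE 0.37, limma adjusted p = 0.00336), but by −0.15 with HL60 alone, which also missed it, and by −2.92 with ML1 alone, which passed. Kcna6, low in both groups, differed by 0.67 and was not called, but was called at 1.29 when rescaled.

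Among inward rectifiers, Kcnj2, known from heart and vessels, was higher in late than in ch+. Its levels were 4.15 to 6.02 (median 5.26) in ch+ and 5.83 to 7.14 (median 6.33) in late, which overlapped, and it differed by 1.17 (SE 0.31, limma adjusted p = 0.00659), or by 0.72 with ML1 alone, which missed the threshold. Kcnj8, the pore of vascular ATP-sensitive channels, had levels of 4.71 to 6.65 (median 6.05) in ch+ and 5.97 to 7.30 (median 7.01) in late, also overlapping. It differed by 0.93 (SE 0.34, limma adjusted p = 0.0613), and missed the threshold on leaving out any of 5 libraries: 0.85 without late ML1 581, 0.89 without late ML1 582, 0.88 without late ML1 583, 0.68 without ch+ HL60 524 and 0.89 without ch+ ML1 538. With HL60 alone it was 0.99 and with ML1 alone 0.88, both short of the threshold. The sodium-activated gene Kcnt2 had 6.27 to 7.22 (median 6.99) in ch+ and 5.73 to 6.36 (median 6.0) in late, with overlap, and differed by −0.89 (SE 0.24, limma adjusted p = 0.00852), but by −0.69 with HL60 alone, which missed the threshold.

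The remaining calls between late and ch+ lay close to the threshold. Kcnmb1 was higher by 1.13 (SE 0.41, limma adjusted p = 0.0589), and missed the threshold on leaving out any of 6 libraries: 0.92 without late HL60 397, 1.08 without late HL60 399, 1.01 without late ML1 581, 1.09 without ch+ HL60 524, 0.98 without ch+ HL60 525 and 0.99 without ch+ ML1 539. It also missed it at 1.35 with HL60 alone and at 0.92 with ML1 alone. Kcnab1 was higher by 0.94 (SE 0.34, limma adjusted p = 0.0555), and again 6 libraries ended the call: 0.86 without late HL60 397, 0.84 without late HL60 398, 0.88 without late HL60 399, 0.80 without ch+ HL60 523, 0.90 without ch+ HL60 524 and 0.76 without ch+ ML1 539. Kcnab1 differed by 1.61 with the HL60 libraries alone, which passed, and by 0.28 with the ML1 libraries alone, which did not. Kcnk2 differed by −0.83 (SE 0.31, limma adjusted p = 0.0711), with 7 such libraries: −0.76 without late ML1 581, −0.69 without late ML1 582, −0.62 without late ML1 583, −0.69 without ch+ HL60 523, −0.81 without ch+ HL60 525, −0.73 without ch+ ML1 539 and −0.75 without ch+ ML1 541. With the HL60 libraries alone Kcnk2 differed by −0.01, which missed the threshold, and with the ML1 libraries alone by −1.64, which passed. Fitting without a trend or with the compared groups alone also ended its call. Kcnab2, a beta subunit gene like Kcnab1, had levels of 4.01 to 5.29 (median 4.49) in ch+ and 3.04 to 4.62 (median 3.61) in late, which overlapped. Kcnab2 differed by −0.91 (SE 0.30, limma adjusted p = 0.0362), and missed the threshold at −0.78 without late ML1 582, at −0.77 with HL60 alone and at −1.04 with ML1 alone.

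With libraries rescaled to equal totals, the differences of late from ch+ moved upward. Kcnt2, Kcnk2 and Kcnab2 were then not called, at −0.27, −0.21 and −0.29. Kcnma1, Kcnh2 and Kcnk1 were called with smaller differences of −1.11, −1.17 and −0.92. Kcna1, Kcnip3, Kcnj2, Kcnj8, Kcnmb1 and Kcnab1 were called with larger differences, of 1.71, 1.68, 1.79, 1.55, 1.75 and 1.56. Members called only after rescaling were all higher, among them Kcna6, Kcnj15 at 1.22, Kcnj10 at 1.09, Kcnd1 at 0.86 and the non-coding Kcnq1ot1 at 0.51.

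**Figure D3:**
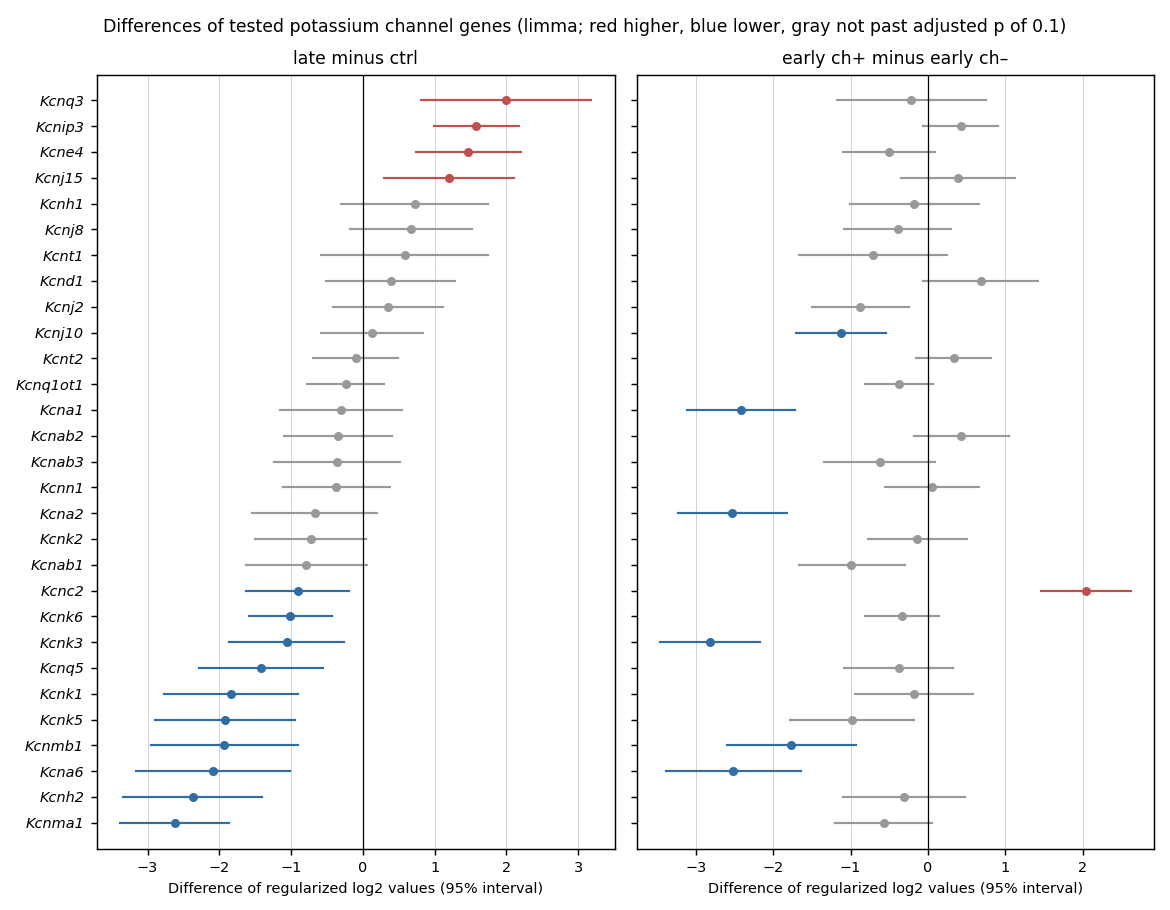
Differences of tested members on the log2 scale, late minus ctrl and ch+ minus ch-, from limma on the deposited scale, where bars are 95% intervals, red marks higher, blue lower and gray not past an adjusted p of 0.1. Kcnma1 stands at −2.62 in late, Kcnk3 at −2.82 and Kcnc2 at 2.04 in ch+, and over all 32 tested members late has 4 higher and 11 lower as deposited but 11 higher and 7 lower with libraries rescaled to equal totals.

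Other members are given by their mean and range over the 21 libraries. Among voltage-gated genes these were Kcnd1 6.50 (4.22 to 7.88) and Kcnh1 4.92 (3.65 to 6.21), both tested. Below the filter were Kcna5 2.98 (2.36 to 4.29), Kcnd3 2.36 (1.98 to 3.44), Kcna4 1.76 (1.5 to 2.78) and Kcnb2 1.45 (1.25 to 2.57). The sodium-activated genes were Kcnt2 6.44 (5.73 to 7.38) and Kcnt1 5.31 (3.59 to 7.22). Small- and intermediate-conductance calcium-activated genes were Kcnn1 4.30 (3.41 to 5.26), which was tested, and Kcnn3 3.31 (2.69 to 4.59), Kcnn4 2.71 (2.21 to 3.85) and Kcnn2 1.89 (1.62 to 2.84), which were not. Inward rectifiers were Kcnj8 6.37 (4.71 to 7.30) and Kcnj2 5.92 (4.15 to 7.14), and below the filter Kcnj13 3.15 (2.70 to 3.74) and Kcnj12 2.24 (1.80 to 3.72). Accessory genes were Kcnab2 4.11 (3.04 to 5.29) and Kcnab3 3.34 (2.63 to 4.96), and below the filter Kcnmb4 3.18 (2.53 to 4.25), Kcnrg 2.47 (2.22 to 3.13) and Kcnip4 2.08 (1.81 to 3.42). The silent modifier genes, whose products join other voltage-gated pores, were Kcng2 2.72 (2.26 to 3.32), Kcns3 2.54 (2.13 to 3.91) and Kcns1 1.49 (1.30 to 2.16). All members had levels of at least 1.25 in every library.

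The non-coding member Kcnq1ot1 9.32 (8.30 to 10.09) is an imprinted RNA (ENSMUSG00000101609, chr7:143203458-143296549, minus strand) that lies antisense inside Kcnq1. It was not deregulated in late, ch+ or ch- against ctrl in limma, with differences of −0.24, −0.14 and 0.24 and unadjusted p-values above 0.05. Between late and ch+ it differed by −0.10 and was not called, whereas it was called lower with the HL60 libraries alone, at −0.71, and higher with libraries rescaled to equal totals, at 0.51. The methods of the study state that reads were counted by strand, but the kit named in the labels amplifies double-stranded cDNA. Whether the strand was kept, and with it the level of Kcnq1ot1, is therefore uncertain. Kcnq1 itself had a mean of −0.747.

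Kcna1 and Kcna6 lie close together on chromosome 6 of GRCm38, near Kcna5 (chr6:126532551-126535412), all on the minus strand. Kcna5, another Shaker-type gene, read 2.5 to 4.04 (median 2.94) in ch-, 2.38 to 3.33 (median 2.46) in ch+ and 3.65, 4.29 and 2.67 in ctrl, with overlap between all groups. It did not reach the filter of the tests, and with the filter lowered to a mean of 1 its difference of ch+ from ch- was −0.58 (SE 0.29, limma adjusted p = 0.373).

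Genes of related function were taken from lists of names. Of 17 partners of potassium channels, 16 were in the table and 10 were tested: 2 were higher and 1 was lower in late than in ctrl (5 and 1 with libraries rescaled to equal totals), and 1 was higher in ch+ than in ch-. In ch+ against ctrl limma called 0 of them, with 3 at an unadjusted p under 0.05. Abcc9, which forms vascular ATP-sensitive channels with Kcnj8, had levels of 9.65 to 10.06 (median 9.72) in ctrl and 11.08 to 11.27 (median 11.20) in late, without overlap. It differed by 1.38 (SE 0.20, limma adjusted p = 9.69e-06), higher in 6 of 6 libraries, and by 2.07 with rescaled libraries. Cav1, the main protein of caveolae, had 9.16 to 9.76 (median 9.39) in ctrl and 7.49 to 8.63 (median 8.06) in late, and differed by −1.34 (SE 0.24, limma adjusted p = 0.000143), or −0.65 rescaled, still past the threshold.

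Of 31 other carriers of potassium, all were in the table and 19 were tested. Between ch+ and ch-, 1 was higher and 3 were lower, or 2 and 2 with libraries rescaled to equal totals. Between late and ctrl 1 was higher and 7 were lower, or 6 and 3 rescaled. Atp1b2, a subunit gene of the sodium pump, had 9.03 to 9.48 (median 9.26) in ch- and 6.67 to 7.65 (median 6.98) in ch+, with 9.66 to 10.03 (median 9.75) in ctrl, and differed between ch+ and ch- by −2.16 (SE 0.18, limma adjusted p = 2.26e-09). In late, Atp1b3 had 8.60 to 9.68 (median 9.26), against 10.66 to 11.02 (median 10.97) in ctrl, and differed by −1.70 (SE 0.19, limma adjusted p = 2.17e-07), or −1.01 rescaled.

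Of 17 genes of voltage-gated calcium channels, 16 were in the table and 11 were tested. Between late and ctrl 4 were lower, whereas 3 were higher and 1 was lower with libraries rescaled to equal totals. In ch+ 2 were lower than in ctrl, and in ch- limma called 0, with 1 at an unadjusted p under 0.05. Between ch+ and ch- 1 was higher and 1 was lower, or 2 were higher rescaled. Cacna1g, a T-type pore gene, had levels of 7.52 to 8.35 (median 8.14) in ctrl and 5.25 to 6.79 (median 6.51) in ch+, without overlap, and differed by −1.73 (SE 0.41, limma adjusted p = 0.0114).

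Promoters are shown because 8 members were lower together in ch+ than in ch-. The RefSeq table for GRCm38.p6 gives windows of 300 bases across the gene starts of RefSeq, and held 50 entries for 34 of the 48 members, among them 4 of these 8. They are Kcna2 at chr3:107101317-107101616 on the plus strand, Kcna6 at chr6:126740625-126740924 on the minus strand, Kcnj10 at chr1:172340960-172341259 on the plus strand and Kcnmb1 at chr11:33962763-33963062 on the plus strand. The windows of Kcna6, Kcnj10 and Kcnmb1 cross the gene starts printed above, whereas that of Kcna2 lies downstream of the printed start, inside the gene. Kcna1 and Kcnk3 are named only. Written 5′ to 3′, capitals mark GGGCGG on either strand, the core letters of the GC box.
Kcna2: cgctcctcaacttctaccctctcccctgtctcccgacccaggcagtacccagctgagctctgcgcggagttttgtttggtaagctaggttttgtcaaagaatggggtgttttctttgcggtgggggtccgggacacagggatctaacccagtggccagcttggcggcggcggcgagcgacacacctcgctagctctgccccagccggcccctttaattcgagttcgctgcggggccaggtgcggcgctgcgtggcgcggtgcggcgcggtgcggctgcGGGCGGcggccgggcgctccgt
Kcna6: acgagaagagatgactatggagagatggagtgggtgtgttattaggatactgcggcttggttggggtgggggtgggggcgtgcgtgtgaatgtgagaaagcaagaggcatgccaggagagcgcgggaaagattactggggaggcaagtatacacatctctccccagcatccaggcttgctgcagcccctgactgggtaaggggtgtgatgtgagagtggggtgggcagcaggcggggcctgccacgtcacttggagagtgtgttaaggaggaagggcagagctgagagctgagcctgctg
Kcnj10: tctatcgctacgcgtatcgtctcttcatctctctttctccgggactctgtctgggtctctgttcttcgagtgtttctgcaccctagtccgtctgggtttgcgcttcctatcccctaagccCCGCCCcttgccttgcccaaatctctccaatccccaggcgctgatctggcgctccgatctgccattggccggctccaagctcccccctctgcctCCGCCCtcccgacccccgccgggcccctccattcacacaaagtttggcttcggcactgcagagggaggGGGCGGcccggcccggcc
Kcnmb1: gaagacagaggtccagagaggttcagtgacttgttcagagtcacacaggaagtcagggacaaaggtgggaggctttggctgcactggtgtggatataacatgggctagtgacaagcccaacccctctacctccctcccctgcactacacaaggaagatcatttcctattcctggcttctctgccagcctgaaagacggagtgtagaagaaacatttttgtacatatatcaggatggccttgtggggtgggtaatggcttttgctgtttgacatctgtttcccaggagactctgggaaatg
GGGCGG occurred 1 time in the window of Kcna2 and 3 times in that of Kcnj10, and not in those of Kcna6 and Kcnmb1. On either strand, 2 of these 4 windows held it, 20 of the 50 windows of members (40%) and 35.7% of all 32851 windows. TATAAA was in 0 of the 4 windows, 3 of 50 and 13.6% of all, and the CArG box of smooth muscle genes was in 0 of the 4, 0 of 50 and 1.63% of all. GC content was 66.7% for Kcna2, 58.3% for Kcna6, 63.7% for Kcnj10 and 49.7% for Kcnmb1, against a median of 52.7% over all windows. These letters describe the windows and do not show binding.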

How the data were processed

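Regularized log2 values of 26852 genes in 21 libraries were used as deposited by the authors, who aligned reads to mm10 with STAR 2.5.1b, counted them with RSEM 1.2.29 and transformed them with DESeq2 1.10.1 per the labels. The methods of the authors name a later version and speak of log10, but values of up to 22.44 fit only the log2 scale that DESeq2 gives. GENCODE M21 (GRCm38) gave symbols for 26686 genes and none for 166.

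Fits used limma 3.58.1 in R 4.3.3 with a mean-variance trend, over genes with a mean of at least 3.32. Tables and plots used Python 3.11.15, pandas 2.3.3 and matplotlib 3.10.9. The fits were tested on simulated data. In all, 17 comparisons were made, 5 over both lines and 12 by line.

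Members past an adjusted p of 0.1 against ctrl, between ch+ and ch- or between the lines were named, at most the 20 with the largest difference of 21, plus the 3 highest per length in ctrl. Other named members were chosen after their values were seen. Members and lists were chosen with earlier results of these data known. Alternatives were other filters, scalings, spread estimates and thresholds, 1 line alone, and leaving out each library. A planned comparison of protein sequences could not be run. Results of some genes are not reported here, although totals include them.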

Additional observations from a re-analysis of the deposited data

Results flagged for a closer look

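In 12 of 57 groups of 6 libraries of named members, 1 library lay far from the other 5 by Dixon's ratio. Its limit marks about 5% of groups of 6 drawn from 1 normal distribution. These groups pool both lines, and some lie near the lowest levels of their gene. The 5% therefore need not hold here, and the count of 12 does not show an excess. Kcnk3 had 4.75 in ch+ HL60 524, against 3.30 to 3.51 in the other ch+ libraries, and 4.24 in late ML1 582, against 5.43 to 6.05 in late. Kcna6 had 6.07 in ch+ HL60 523, against 3.06 to 3.35. Kcna1 had 4.69 in ch+ HL60 524, against 3.14 to 3.59. Kcnj10 had 3.79 in ch+ ML1 539, against 2.58 to 2.75, and Kcnj15 had 5.57 in ch+ ML1 538, against 7.07 to 7.47. Kcnc2 had 3.16 in ch- HL60 527, against 2.5 to 2.65, and Kcnk2 had 7.33 in ch- ML1 544, against 7.98 to 8.26. Kcnh2 had 5.73 in late HL60 399, against 3.06 to 3.95. Kcnk5 had 4.71 in late HL60 397, against 2.78 to 3.30. Kcnip3 had 10.12 in late HL60 398, against 8.57 to 9.04. Kcnk6 had 6.04 in late ML1 582, against 6.52 to 6.81. In the late stage HL60 differed from ML1 in limma by 2.31 for Kcnk1, 1.88 for Kcnma1 and 1.38 for Kcnk2.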

How the results depend on the processing

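Of 117 calls of single members over the 17 comparisons, 61 were kept in every alternative and 56 were lost in at least 1, with no change of direction. Rescaling to equal totals ended 19, HL60 alone 14 of 51 and ML1 alone 13 of 51, the absence of a trend 11, and an adjusted p under 0.05 ended 20. Among related genes, Akap9 and Cacna2d1 turned from −0.42 and −0.55 between late and ch+ to 0.20 and 0.06 when rescaled, which moved the median of all tested genes there from 0.02 to 0.63. For the other lost calls the cause was not tested.

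Counts of deregulated members moved by more than 1.5 times in few settings. For ch+ against ctrl a filter of 5 left 6 of 10, with fewer genes tested. For ch- against ctrl the count of 1 became 2 with quantile normalization, and 0 without a trend or with robust empirical Bayes. For late against ch+ it was 10 with HL60 alone and 10 with ML1 alone, with fewer libraries. For late HL60 it was 8 at an adjusted p under 0.05. For ch- HL60 the 2 became 1 with a filter of 1 or 5, quantile normalization, rescaling, robust empirical Bayes, array weights, compared groups alone or an adjusted p under 0.05, and 0 without a trend. For ch- ML1 it was 1 with quantile normalization, and for ch+ against ch- in HL60 it was 3 with a filter of 5. For HL60 against ML1 in late it was 9 with array weights and 8 with compared groups alone. Apart from the smaller numbers of genes or libraries just named, the cause was not tested.

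With 1 library left out, counts ranged from 11 to 15 for late, 7 to 11 for ch+, 0 to 1 for ch-, 8 to 11 for ch+ against ch-, 13 to 17 for late against ch+, 5 to 14 for late HL60, 10 to 15 for late ML1, 7 to 9 for ch+ HL60, 8 to 11 for ch+ ML1, 0 to 2 for ch- HL60, 0 to 1 for ch- ML1, 5 to 8 and 6 to 8 for ch+ against ch- in HL60 and ML1, and 3 to 5 for HL60 against ML1 in late. They were 0 throughout for the lines in ch+, in ch- and in their change.

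Over all genes, rescaling called 8302 in place of 2795 for late, 9031 in place of 2555 for late against ch+, 5527 in place of 1778 for late HL60 and 8781 in place of 2851 for late ML1. Array weights called 156 in place of 249 for ch-, 533 in place of 868 for ch+ ML1, 190 in place of 304 for ch- ML1, 362 in place of 552 for ch+ against ch- in ML1 and 1183 in place of 531 for HL60 against ML1 in late. Compared groups alone called 552 for ch+ ML1, 126 in place of 204 for ch- HL60, 181 for ch- ML1 and 990 for the lines in late. An adjusted p under 0.05 left 512 of 800 for ch+, 156 for ch-, 461 of 692 for ch+ HL60, 133 for ch- HL60 and 178 for ch- ML1. Without a trend there were 170 for ch- ML1. HL60 alone called 1756 for late, 478 in place of 812 for ch+ against ch- and 1286 for late against ch+, and ML1 alone 460 for ch+ against ch-. For ch- there were 136 without ctrl 374 and 136 without ctrl 375. For ch- HL60 there were 127 without ctrl 374 and 106 without ch- HL60 529, for ch- ML1 180 without ctrl 374 and 181 without ch- ML1 544, and for ch+ against ch- in HL60 295 in place of 509 without ch- HL60 528. Between the lines, over all settings and left-out libraries, 2 genes in ch+ became 0 to 9, 7 in ch- became 0 to 10, and 1 in their change became 0 to 2.

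No paired analysis was made because the groups share no replicate numbers, although ch+ and ch- cells are described as coming from shared marrows. Groups of 3 limit what can be detected, the table gives no read depth per library, and low genes are pulled toward their mean, so missed thresholds do not show equal levels.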
